A study of Mus musculus with 65 samples.

Results

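Peaks of the histone mark H3.3K27me3 that were present at day 6 of differentiation and absent at day 0 were described here, across wild-type mouse embryonic stem cells and embryoid bodies. A peak is a stretch of the genome where immunoprecipitated fragments pile up. The authors' filtered peak lists were used on chromosomes 1 to 19 and X. A peak of day 6 replicate 1 was taken when it overlapped a peak of day 6 replicate 2 by at least 1 bp and no peak of either day 0 replicate. This gave 3785 new peaks of 26198 day 6 replicate 1 peaks. Of the 7116 peaks found in both day 6 replicates, 3785 (53.2%) were new and 3331 (46.8%) overlapped a day 0 peak and are called kept. Another 2613 peaks found in both day 0 replicates overlapped no day 6 peak and are called lost. The new peaks were thus chosen by the H3.3K27me3 calls of these 4 libraries, whose values are given as a description and without a test.

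The day 6 cells were embryoid bodies grown without leukaemia inhibitory factor (LIF) and with 10 µM all-trans retinoic acid, and the day 0 cells were stem cells kept in serum with LIF. Chromatin was profiled in wild-type cells only, with a custom-made antibody to H3.3K27me3 and with antibodies to H3K27me3, H3.3 and H3. Each antibody had biological duplicates at each day, and each of the 16 libraries was sequenced in 3 runs. Polyadenylated RNA was sequenced from an H3.3K27A line, an H3.3A knockout line and wild-type cells at days 6 and 0 in 2020, and from wild-type cells at days 6, 3 and 0 in 2019. Every group had 2 RNA libraries except the 2020 wild type at day 0, which had 1. The edited lines were made with CRISPR/Cas9, and the labels do not say how many clones they stand for or which H3.3 gene carries the K27A change. The 2 H3.3 genes are H3f3a and H3f3b. H3f3a, which encodes the protein H3.3A, stood at 23.6 and 23.4 CPM (read counts scaled to the library total) in H3.3K27A, at 21.2 and 25.9 CPM in the knockout and at 141 and 133 CPM in wild type at day 6, so it was low in both edited lines. H3f3b stood at 691 and 686 CPM in H3.3K27A, at 1148 and 1178 CPM in the knockout and at 1050 and 1043 CPM in wild type at day 6.

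H3.3 is a variant of histone H3 that is placed into chromatin outside DNA replication, while the canonical H3 proteins are placed mainly at replication. Polycomb repressive complex 2 adds up to 3 methyl groups to lysine 27 of H3, and the fully methylated form, H3K27me3, is known for marking silent developmental genes in embryonic stem cells, above all at CpG-rich promoters. H3.3K27me3 is the same modification on the variant. An antibody to all forms of H3 would be a measure of nucleosomes as such and a background for the others. The titles name the antibody H3, while other deposited names of its libraries read h31, and h31k27me3 for H3K27me3. Whether it sees all forms of H3 is thus not settled by the labels.

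The letters below, from the RefSeq assembly GRCm38.p6 (the build of mm10, plus strand), show what the strongest new peaks are made of. Each is the 300 bp around the summit of one of the 3 new peaks with the highest mean enrichment, and capitals mark CG dinucleotides.
chr1:95451949-95452248: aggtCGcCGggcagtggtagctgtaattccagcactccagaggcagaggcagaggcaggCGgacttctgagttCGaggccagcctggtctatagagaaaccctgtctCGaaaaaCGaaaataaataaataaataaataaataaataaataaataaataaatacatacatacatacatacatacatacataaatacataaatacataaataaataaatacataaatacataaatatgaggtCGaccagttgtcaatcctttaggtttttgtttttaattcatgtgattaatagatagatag
chr19:23357468-23357767: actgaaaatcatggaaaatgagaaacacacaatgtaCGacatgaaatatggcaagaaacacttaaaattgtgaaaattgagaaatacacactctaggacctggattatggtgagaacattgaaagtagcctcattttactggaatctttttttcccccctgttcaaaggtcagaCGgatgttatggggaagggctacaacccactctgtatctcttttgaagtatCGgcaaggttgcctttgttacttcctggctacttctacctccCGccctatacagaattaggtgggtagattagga
chr19:20867242-20867541: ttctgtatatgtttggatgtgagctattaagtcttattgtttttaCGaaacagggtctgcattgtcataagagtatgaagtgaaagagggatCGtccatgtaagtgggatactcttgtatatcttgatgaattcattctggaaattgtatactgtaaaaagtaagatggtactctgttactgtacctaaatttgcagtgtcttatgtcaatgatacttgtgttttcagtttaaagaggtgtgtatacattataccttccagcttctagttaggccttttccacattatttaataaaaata
Their GC contents were 33%, 40.7% and 33%, with 7, 4 and 2 CG dinucleotides, and the first holds long runs of a repeated 4-base unit.

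The next 4 sequences are windows at RefSeq starts of olfactory receptor genes, called promoters here, that lie wholly inside a new peak. They are shown because these receptors were the largest gene family at the new peaks. They run from 250 bases before to 50 bases after the RefSeq gene start, written 5′ to 3′ on the gene's strand. In Olfr1444, Olfr1445 and Olfr854 the last 50 bases begin with atg, the start codon. For Olfr1444 and Olfr855 the start in the GENCODE M21 annotation lies further upstream, at chr19:12857283 and chr9:19582617. The windows may thus lie away from the start of transcription. Capitals mark TAATTA, the core of the homeodomain motif, which occurs in promoters of olfactory receptors.
Olfr1444 (chr19:12861527-12861826, plus): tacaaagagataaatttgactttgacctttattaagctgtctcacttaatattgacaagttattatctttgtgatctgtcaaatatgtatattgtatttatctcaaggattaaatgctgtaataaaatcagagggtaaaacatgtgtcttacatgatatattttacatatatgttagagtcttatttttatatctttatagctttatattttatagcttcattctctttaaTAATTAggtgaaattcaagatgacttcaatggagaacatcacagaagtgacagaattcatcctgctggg
Olfr1445 (chr19:12883633-12883932, plus): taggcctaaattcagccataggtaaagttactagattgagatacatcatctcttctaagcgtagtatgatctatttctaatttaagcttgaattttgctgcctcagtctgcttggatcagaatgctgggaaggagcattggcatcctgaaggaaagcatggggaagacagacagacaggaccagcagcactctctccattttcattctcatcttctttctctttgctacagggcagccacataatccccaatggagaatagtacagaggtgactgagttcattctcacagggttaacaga
Olfr854 (chr9:19567333-19567632, minus): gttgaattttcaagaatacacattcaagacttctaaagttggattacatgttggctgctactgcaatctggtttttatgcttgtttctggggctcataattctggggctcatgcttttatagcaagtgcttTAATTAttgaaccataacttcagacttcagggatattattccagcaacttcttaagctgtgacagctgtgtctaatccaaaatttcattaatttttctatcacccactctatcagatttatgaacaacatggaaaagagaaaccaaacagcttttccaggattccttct
Olfr855 (chr9:19584261-19584560, plus): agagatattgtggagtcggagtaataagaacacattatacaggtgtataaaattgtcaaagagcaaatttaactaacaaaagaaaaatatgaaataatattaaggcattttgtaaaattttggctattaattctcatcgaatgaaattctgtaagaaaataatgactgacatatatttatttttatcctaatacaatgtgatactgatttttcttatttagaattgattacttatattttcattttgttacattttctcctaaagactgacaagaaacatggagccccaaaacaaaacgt
Olfr1444 and Olfr1445 share 1 new peak, and Olfr854 and Olfr855 share another. In each pair 1 window holds TAATTA and the other does not, and the GC contents were 27.7%, 43%, 36.0% and 26.0% in the order printed.

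The new peaks were long and shallow. They covered 51.1 Mb, with a median length of 11183 bp and a longest of 97021 bp. Enrichment is the authors' own value for a peak, the ratio of its highest pileup to the mean over the genome. Its median over the new peaks was 2.82 in day 6 replicate 1 (range 2.58 to 9.16) and 2.58 in day 6 replicate 2 (highest 4.94). The lowest value in each list stands for 10 tags in replicate 1 and 11 tags in replicate 2 at the summit, and 1 further tag moves the enrichment by 1 step. In replicate 1, 1879 new peaks (49.6%) had a summit of 10 tags and 1556 (41.1%) of 11 tags, so that 90.8% lay within 1 tag of the lowest value that the list holds. The kept peaks had 65.9% within 1 tag of it, and their highest enrichment was 55.0. Only 23 new peaks had an enrichment of at least 3 in both day 6 replicates, and 2 had at least 4 in both.

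The 2 day 6 H3.3K27me3 libraries were the shallowest of the 16, with 33.6 and 37.8 M tags (M, mega), against 54.2 to 81.6 M tags in the others and 81.2 and 55.2 M tags in the day 0 H3.3K27me3 libraries. Depth and day cannot be told apart for this antibody. The median new peak had 47.9% of its length covered in replicate 2. Without replicate 2 the rule gave 18673 peaks, and with replicate 2 alone it gave 9305. The authors' longer lists of all calls, before their filter, held a day 0 H3.3K27me3 call over 2275 new peaks (60.1%) in either replicate and over 644 (17%) in both, which leaves 1510 (39.9%) with none. By replicate, those day 0 calls met 26.5% of the new peaks in replicate 1 and 50.6% in replicate 2, and they covered 11.1% and 18.1% of the genome. The median distance from a new peak to the nearest filtered day 0 peak was 49.0 kb. The rule excludes any overlap, and no background distance was computed, so this value does not show that new peaks lie apart. At the threshold, the closest new peak lay 12 bp from a day 0 peak and 251 (6.63%) lay within 5 kb. On the other side of it, the smallest overlap of a kept peak with a day 0 peak was 10 bp, and 121 kept peaks (3.63%) were covered over less than 10% of their length, while the median kept peak was covered over 96.3%.

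The new peaks lay in AT-rich sequence. Their median GC content was 36.2% (quartiles 34.8% and 37.6%), and 3716 of the 3785 (98.2%) were below the genome's 41.8%. Kept peaks had a median of 39%, or 37.6% outside chromosome 8, and lost peaks 45.8%. The new peaks held a median of 4.23 CG dinucleotides per kb, against 5.70 in kept peaks, 15.1 in lost peaks and 8.34 over the genome. Repeat-masked sequence made up a median of 29.6% of a new peak, 30.3% of a kept peak and 22.3% of a lost peak, against 34.3% of the genome. Low GC content was shared by whole libraries. The median over all peaks of a library was 37.6% in both day 6 H3.3K27me3 libraries, against 41.5% and 41.3% at day 0, and 38.2% and 38.0% in the day 6 H3 libraries, against 41.3% and 41.2% at day 0. The H3K27me3 libraries stood at 41.3% and 39.9% at day 6, against 42.3% and 42.6% at day 0, and the H3.3 libraries at 43.2% and 42.3%, against 43.4% and 43.4%. For each antibody both day 6 values lay below both day 0 values, and the gap was widest for H3.3K27me3 and H3. The part of base composition in the choice of the new peaks was not tested.

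**Figure D1:**
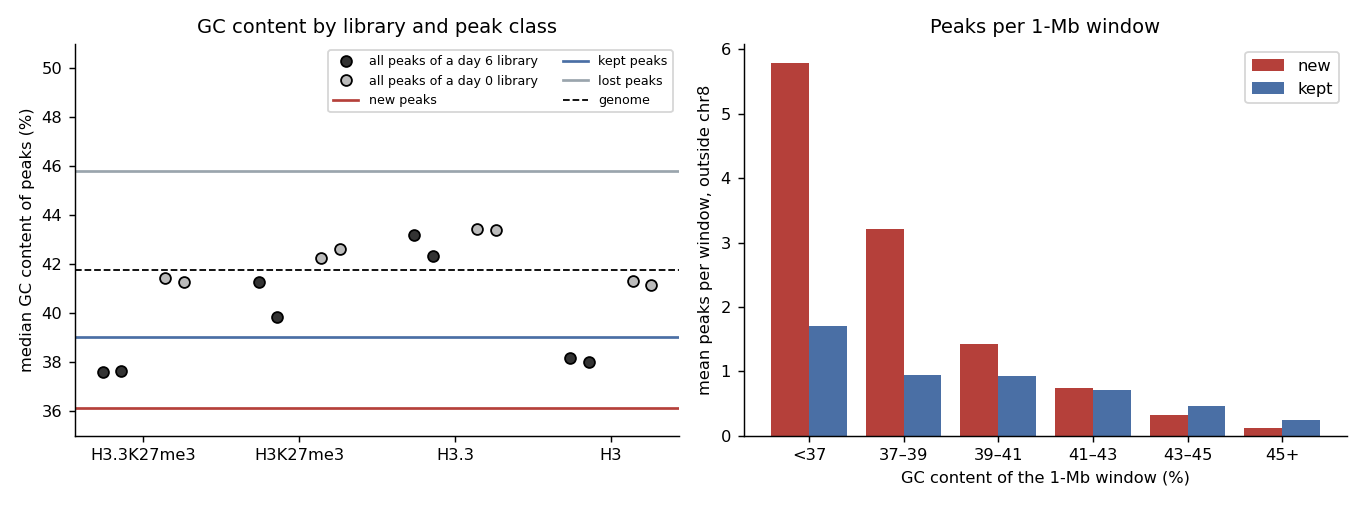
Left, median GC content (%) of all peaks of each of the 16 libraries (points, day 6 dark and day 0 light, 1 point per duplicate), with lines for the new, kept and lost H3.3K27me3 peaks and the genome. Right, mean number of new and kept peaks per 1-Mb window outside chromosome 8, by the window's GC content. New peaks averaged 5.79 per window under 37% GC and 0.125 at 45% or more, and kept peaks averaged 1.71 and 0.246.

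Across 1-Mb windows of the genome, the number of new peaks fell steeply with GC content. The 189 windows under 37% GC make up 7.35% of all windows and held 1070 new peaks (28.3%), or 5.66 per window. The 478 windows at 45% or more held 64, or 0.134 per window, although they hold 8841 coding gene starts against 235 in the AT-richest windows. By chromosome, the autosomes other than 8 held 0.818 (chromosome 7) to 2.67 (chromosome 16) new peaks per Mb. Chromosome 8 held 54 new peaks, or 0.430 per Mb, and 1502 kept peaks. Chromosome X held 1 new peak and 5 kept peaks. Both chromosomes stood out in all 16 libraries, whatever the antibody or day. Chromosome 8 had the most peaks per Mb in each library, 11.9 to 19.4, and chromosome X had 0.037 to 0.367. For this reason kept peaks are also given outside chromosome 8. The 3 windows with most new peaks, 13 each, were all on chromosome 14. They were chr14:107000001-108000000 and chr14:109000001-110000000, which hold no coding gene start, and chr14:116000001-117000000, which is crossed by Gpc5 and Gpc6, genes of glypicans, the heparan sulfate proteoglycans of the cell surface. A window in the prolactin cluster, chr13:27000001-28000000, stood out among the next (chosen after its values were seen). It held 11 new peaks and 21 coding gene starts, those of prolactin and its placental relatives.

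Most new peaks were away from genes. By GENCODE M21, 169 of them (4.46%, 95% Wilson interval 3.85% to 5.17%) lay within 1 kb of the start of a protein-coding gene, against 549 kept peaks (16.5%) and 1095 lost peaks (41.9%). Another 1128 new peaks (29.8%) overlapped the body of a coding gene and no start, and 2488 (65.7%) overlapped no coding gene. The median distance from a new peak to the nearest coding start was 273 kb, against 67.1 kb for kept and 8.60 kb for lost peaks, and the upper quartile of the new peaks lay at 620 kb. The starts within 1 kb of a new peak belonged to 201 coding genes, 0.924% of the 21755 annotated. Beside these, the new peaks met the starts of 149 processed pseudogenes (1.51% of those annotated) and 10 polymorphic pseudogenes (12.2% of 82), copies that are intact in some strains only.

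Receptors of smell, the genes by which sensory neurons of the nose recognise odours and pheromones, were the main family at the new peaks. Olfactory receptors held 97 of the 201 coding starts (48.3%), while they make up 5.22% of all coding genes. In other words, 8.55% of the 1135 annotated olfactory receptors had a new peak at their start, against 0.924% of all coding genes. No share over genes in sequence of like GC content was computed, so this excess cannot be told apart from base composition. Kept peaks met 44 olfactory receptors (6.28% of their coding starts), or 42 outside chromosome 8 (10.9% of the starts there), and lost peaks 10 (0.824%). Vomeronasal receptors, the pheromone receptors of the vomeronasal organ, added 14 starts, Vmn1r12 and Vmn1r222 among them, and kept peaks met 25 of this family. Taste receptors for bitter substances added 3, Tas2r102, Tas2r124 and Tas2r136. Together these receptors held 114 starts (56.7%), or 7.5% of their 1519 annotated genes, against 0.924% of all coding genes. Of the vomeronasal family alone, kept peaks met a larger share (7.55%) than new peaks (4.23%).

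The 97 receptors lay in 78 new peaks, which had a median length of 13.9 kb and a median GC content of 35.5%. Their enrichment ran from 2.58 to 3.87 over both replicates, with medians of 2.82 and 2.58, the same as over all new peaks. Chromosome 2 held 51 of the 97, out of 294 receptors annotated there. Chromosome 9 held 13 of 132, chromosome 7 held 10 of 244, and chromosome 19 held 6 of 66. The peak with most receptors, chr2:89114131-89163617, met the starts of Olfr1221, Olfr1222, Olfr1223 and Olfr1224-ps1, with enrichments of 2.58 in replicate 1 and 2.79 in replicate 2. The highest mean enrichment at any coding start, 3.46, was that of chr19:12856909-12884942 with Olfr1444 and Olfr1445, which had 3.05 in replicate 1 and 3.87 in replicate 2. Of the 8 coding genes with the highest mean enrichment, 7 were olfactory receptors, namely these 2, Olfr854 and Olfr855 at chr9:19561604-19585392, Olfr1446, Olfr1170 and Olfr1463. The other was Smim10l1, a gene of a small membrane protein, at chr6:133094398-133121651.

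In RefSeq, 78 promoters (of 77 receptors) of this group were listed, and 67 lay wholly inside a new peak. Like the printed ones, they are windows at the RefSeq start, which can be the start codon and not the start of transcription. Their median GC content was 33.2%, against 35.3% in the 857 promoters of olfactory receptors without a new peak, 45% in the 98 promoters of other coding genes with one and 57.0% in 20061 coding promoters. TAATTA, counted once since it reads alike on both strands, occurred in 26.9% of the promoters of receptors with a new peak and in 17.9% of those of receptors without one. It occurred in 14.3% of the other promoters with a new peak and in 4.39% of all. The Olf/EBF motif, searched as TCCC and GGA with 3 bases between them on either strand, occurred in none of the 78, in 2.92% of the receptor promoters without a new peak and in 4.92% of all. The share with TAATTA thus followed the order of the AT content of these 4 groups. All these shares describe windows at RefSeq starts, so they do not show which motifs the receptors' promoters hold or lack.

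**Figure D2:**
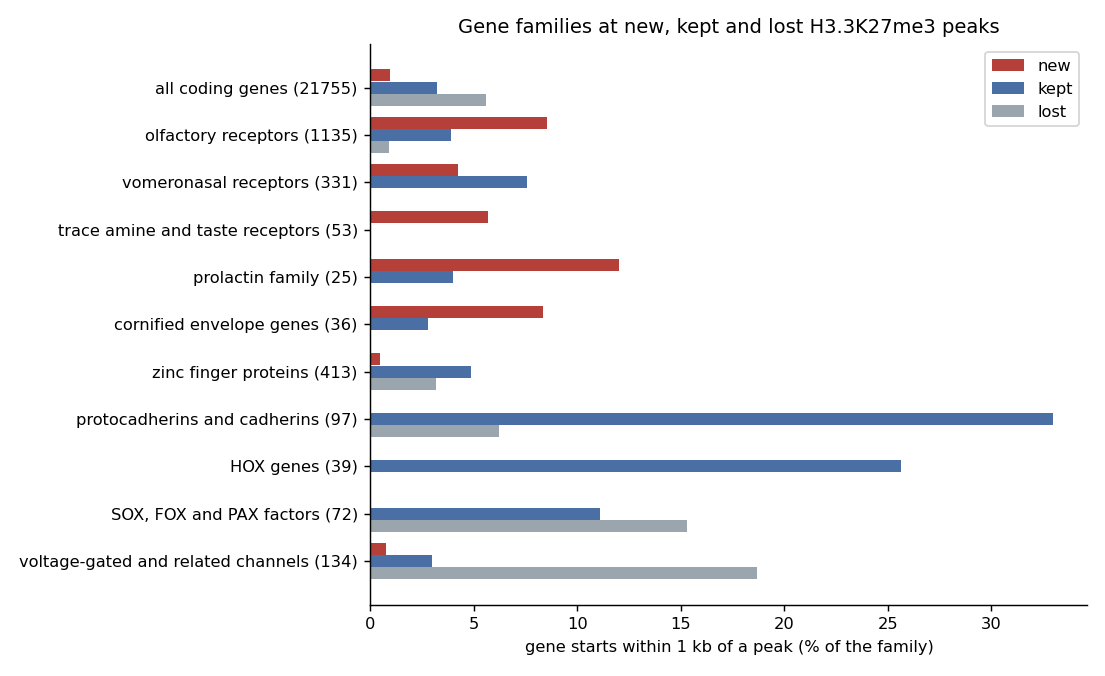
Share of each gene family (% of the annotated members, whose number is in brackets) with a start within 1 kb of a new, kept or lost H3.3K27me3 peak. Olfactory receptors stood at 8.55% for new peaks and 3.88% for kept peaks, while HOX genes and protocadherins with cadherins had none at new peaks and 25.6% and 33% at kept peaks.

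None of the 39 HOX genes, which set position along the body axis, had a start at a new peak, and none of the 72 SOX, FOX and PAX transcription factors or the 97 protocadherins and cadherins. With a start at a new peak in 0.924% of all coding genes, a count of 0 in families of this size is near the overall share. Kept peaks met 10, 8 and 32 of them. Zinc finger proteins had 2 starts at new peaks, Zfp329 and Zfp599, of 413. Small tissue-specific families had a few. The prolactin family had 3 of 25 (Prl4a1, Prl7a2 and Prl8a6), the cornified envelope genes of skin had 3 of 36 (Lce1g, Lce1i and Lce1j), and a run of 4 keratin-associated proteins of hair, Krtap19-1 to Krtap19-4, was also met. Among the lists drawn up for this system, the 16 Polycomb genes, the 10 genes for H3.3 or its chaperones and the 19 pluripotency factors had no new peak at a start or in a body. Over all coding genes 0.924% had one at the start and 3.88% in the body, so counts of 0 in such short lists are near the overall share. The 16 neuronal genes had 2 starts, those of Elavl4, an RNA-binding protein of neurons, and of Cntnap2, an adhesion protein of axons. The 18 adhesion and synapse genes on long loci had 1, that of Ctnna2, the neuronal alpha-catenin.

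Inside genes, the new peaks were found in long ones. They overlapped 845 coding genes with a median length of 104 kb, against 17.4 kb over all coding genes, and 103 genes held 3 or more. The genes with most new peaks, chosen after their values were seen, were Cntnap2 with 14 over 2245 kb, Gpc5 with 13 over 1433 kb, and Lrp1b, an endocytic receptor, and Lsamp, an adhesion protein of limbic neurons, with 12 each over 2058 and 2197 kb. Another 6 genes held 10 each. They were Cadm2, Csmd3, Dlg2, Erbb4, Foxp2 and Nrxn3, most of them genes of adhesion or of the synapse. Per length the highest of these was Foxp2, a transcription factor of vocal circuits, with 1.85 per 100 kb, and Cntnap2 had 0.624. Of the 18 adhesion and synapse genes listed, 14 held new peaks in their bodies, 85 in all. Over all coding genes 3.88% held one, but this list was drawn up from long loci. No share over genes of like length was computed, so the count cannot be told apart from gene length. Of the 16 neuronal genes 6 held 31, most of them in Cntnap2 (14) and Nrxn3 (10).

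The strongest new peak was chr1:95445044-95462440, in a stretch without coding genes 131 kb from Fam174a. Its enrichment was 9.16 in day 6 replicate 1 and 4.94 in day 6 replicate 2. The other antibodies also had filtered peaks there, with an enrichment of 5.59 in H3.3 day 6 replicate 1, 6.31 in H3K27me3 day 6 replicate 2, 6.94 in H3 day 6 replicate 2 and 5.56 in H3 day 0 replicate 1. The next, chr19:23357295-23361729 inside Mamdc2, had 6.11 and 4.94. It is the one new peak that lies over a strong day 0 call, of 8.68 in H3.3K27me3 day 0 replicate 2, which the authors' filter left out, so its absence at day 0 rests on that filter. H3 calls there reached 9.68 and 8.68 at day 6 and 8.02 and 9.54 at day 0. Between 15 and 30 such strong calls were left out per library. The third, chr19:20864659-20869633 inside Tmc1, a subunit of the transduction channel of hair cells, had 6.58 and 2.58, and H3K27me3 day 0 peaks of 3.15 and 4.76.

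The other 5 of the 8 strongest were chr13:27366300-27376815, chr3:44553864-44581311, chr14:4030873-4037902, chr6:130245940-130254098 and chr1:102628091-102651290, with mean enrichments of 3.70 to 4.19. The first of them lay 14 kb from Prl2b1, a placental prolactin relative, and 93.6% of it is masked repeat. The one on chromosome 14 lay in the predicted gene Gm5796 and is masked over 90.6%. The 5 longest were chr14:107632279-107729299 (97021 bp), chr15:48693453-48782543 (89091 bp), chr1:68781943-68861819 (79877 bp), chr10:124315428-124394371 (78944 bp) and chr14:81700747-81771807 (71061 bp). They lay at 34.9% to 36.4% GC with mean enrichments of 2.69 to 3.04, near the lowest value of the lists. The second lies within Csmd3, 9.52 kb from its start, and the third within Erbb4, a neuregulin receptor, 246 kb from its start. The other 3 overlap no coding gene.

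Few new peaks carried a peak of another antibody. A peak was counted when it was found in both duplicates of an antibody, and 226 new peaks (5.97%, Wilson interval 5.26% to 6.77%) overlapped such an H3K27me3 peak at day 6, against 127 (3.36%, 2.83% to 3.98%) at day 0. For H3 the numbers were 231 (6.10%) at day 6 and 115 (3.04%) at day 0, and for H3.3 they were 267 (7.05%) at day 6 and 222 (5.87%) at day 0. The kept peaks outside chromosome 8 stood at 32.9% for H3K27me3, 25.3% for H3.3 and 27.1% for H3 at day 6. At the new peaks the share of bases covered at day 6 was 3.62% for H3K27me3, 5.13% for H3.3 and 3.03% for H3. These peaks of both duplicates cover more of the whole genome, at 5.00%, 10.8% and 3.26%. In single day 6 libraries this order held for H3.3 only, at 7.19% and 7.64% against 13.7% and 10.2% of the genome. H3K27me3 peaks of single libraries covered 8.28% and 9.34% of the new-peak bases, against 7.29% and 6.21% of the genome. H3 peaks covered 8.08% and 15.2%, against 4.96% and 7.42%. None of the 3 antibodies had a peak of both duplicates over 3168 new peaks (83.7%) at day 6. H3K27me3 alone met 159 (4.20%), H3 alone 151 (3.99%), H3.3 alone 212 (5.6%) and all 3 together 12 (0.317%). H3K27me3 peaks present at day 6 and absent at day 0 met 185 (4.89%), and those present at day 0 and absent at day 6 met 86 (2.27%).

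In single libraries the shares were higher. H3K27me3 peaks met 15.8% and 20.7% of the new peaks at day 6, against 13.2% and 10.8% at day 0. H3 peaks met 17.7% and 26.8% at day 6, against 10.4% and 6.26% at day 0. H3.3 peaks met 11.5% and 14.7% at day 6, against 9.41% and 10.3% at day 0. For each antibody both day 6 duplicates lay above both day 0 duplicates, and no test was made of these shares. The H3 libraries differed between the days by as many percentage points as the H3K27me3 libraries or more. The 78 olfactory receptor peaks were met by H3K27me3 in 6 cases (7.69%) and by H3 in 6 at day 6, by H3.3 in none, and by none of the 3 at day 0. The peak with 4 receptors on chromosome 2 was among those met by H3K27me3.

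**Figure D3:**
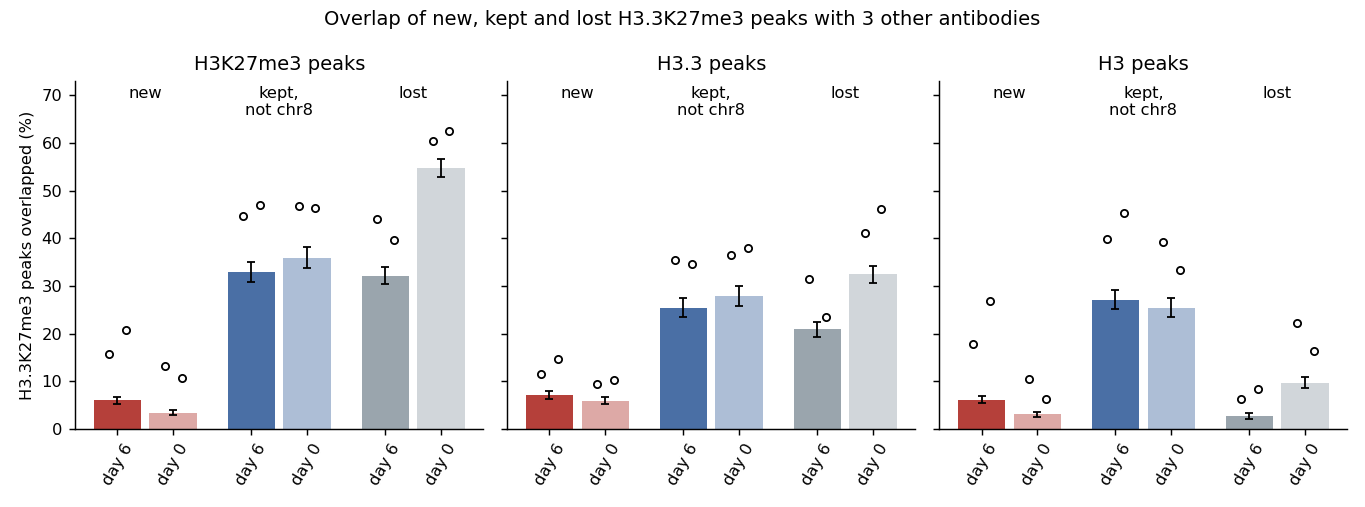
Share of new, kept (outside chromosome 8) and lost H3.3K27me3 peaks that overlap a peak of H3K27me3, H3.3 or H3 at day 6 and day 0. Bars count peaks found in both duplicates, with 95% Wilson intervals that cover counting error only, and circles are the single duplicates. New peaks stood at 3.04% to 7.05% in the bars, and kept peaks outside chromosome 8 at 25.3% to 35.9%.

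The signal of the other antibodies was compared between the days in the authors' tables of regions, which hold a scaled read number per region and library. Each table was tested as a whole with limma, 2 libraries at each day. Beside the 3785 new peaks, only 524 H3, 516 H3K27me3 and 445 H3.3 regions overlap a new peak. The counts below thus describe a part of the new peaks. Of the 524 H3 regions that overlap a new peak, 183 rose and 44 fell at day 6, or 34.9% and 8.40%, against 14.4% and 26.5% of all 6618 regions. Of the 516 H3K27me3 regions, 49 rose and 29 fell, or 9.50% and 5.62%, against 4.18% and 35.8% of all 10491. Of the 445 H3.3 regions, 100 rose and 106 fell, or 22.5% and 23.8%, against 17.4% and 41.7% of all 14812. The median log2 difference of day 6 minus day 0 was 0.11 at the H3 regions, 0.05 at the H3K27me3 regions and -0.01 at the H3.3 regions, and -0.08, -0.13 and -0.12 over all regions of the 3 tables.

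The size of these counts depended on the scaling and on single libraries. Centring each library on its median region moved the median of all regions to 0, a shift of 0.13 for H3K27me3, 0.12 for H3.3 and 0.08 for H3. At new peaks it gave 247 rises and 8 falls for H3K27me3, 148 and 81 for H3.3, and 230 and 14 for H3. Without either day 0 replicate of H3 no region at a new peak was called by limma, and without its day 6 replicate 2 the 227 calls became 128. Without H3K27me3 day 6 replicate 2 the 78 calls became 31. Without its day 0 replicate 1 or 2 they became 40 or 35.

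Base composition moved with these results too. H3 regions at new peaks had a median GC content of 36.5%, against 39.9% in the other H3 regions. Among H3 regions under 37% GC, 49.7% of those at new peaks rose and 0.321% fell, and 39.8% of the other regions rose and 3.03% fell. Between 39% and 41% GC, 4.35% of those at new peaks rose and 28.3% fell, against 5.26% and 23.8% of the other regions. At 45% or more, 69.2% of the other H3 regions fell. H3K27me3 regions under 37% GC rose in 11.9% of cases at new peaks and in 7.22% elsewhere, and H3.3 regions in 25.9% and 20.2%. In H3 the gap in rises between the classes under 37% and from 39% to 41% was thus wider than that between new-peak regions and other regions of 1 class. The part of base composition in these results was not tested further.

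**Figure D4:**
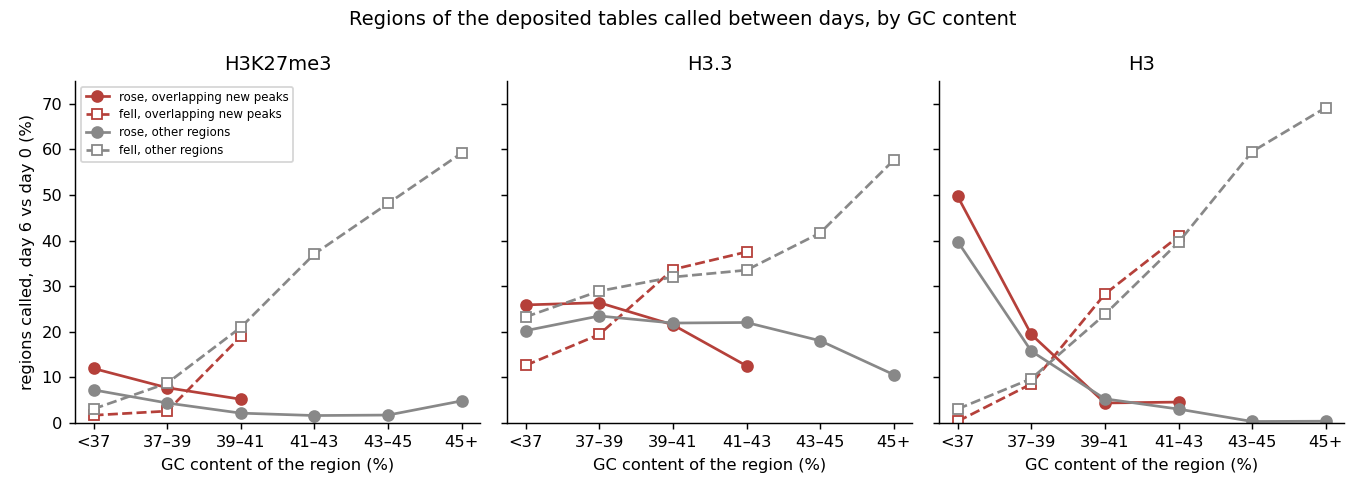
Share of regions in the authors' H3K27me3, H3.3 and H3 tables that rose (filled circles) or fell (open squares) at day 6 against day 0 by limma, by the region's GC content (%), for regions overlapping a new peak (red) and all other regions (grey). Classes with under 20 regions are left out. H3 regions at new peaks rose in 49.7% of cases under 37% GC and in 4.35% between 39% and 41%.

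The 5 regions with the largest change in each table were as follows. In H3K27me3 all 5 were falls. The region chr10:130468546-130476420 at Vmn2r87, a vomeronasal receptor, had a signal of 146 and 145 at day 6, against 260 and 283 at day 0 (log2 difference -0.89 ± 0.08 SE, limma adjusted p = 8.16e-05). The promoter region of Dlx5, a homeodomain factor of forebrain and bone, had 3379 and 3180 at day 6, against 4744 and 5210 at day 0 (-0.60 ± 0.08, limma adjusted p = 0.000615). The other 3, at the promoters of Pknox2, Mettl24 and Foxa2, had differences of -0.55, -0.55 and -0.54. The new peak met only the edge of the Dlx5 region, which spans chr6:6807534-6895072, while the peak spans chr6:6807068-6817512. The Vmn2r87 region was met only at its very end, by a new peak at chr10:130476335-130480080. The Mettl24 region, chr10:40680389-40688875, was also met only at its end, by a new peak at chr10:40687464-40697140.

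In H3.3 the changes were larger and went both ways. The region chr4:70663312-70666082, 128 kb from Megf9, had a signal of 64.4 and 83.0 at day 6, against 181 and 179 at day 0 (-1.29 ± 0.10, limma adjusted p = 3.53e-08), and a region in an intron of Epha5, an ephrin receptor, fell by 0.94. The region chr1:168964701-168979293 had 450 and 451 at day 6, against 231 and 243 at day 0 (0.93 ± 0.07, limma adjusted p = 6.33e-08). The regions chr18:55983367-55988961 and chr13:84513854-84520074 rose by 1.02 and 0.90. In H3 the 5 largest changes were all rises, of 0.44 to 0.48, and 4 of the 5 were intergenic. The one in a gene, chr6:15319727-15346995 in an intron of Foxp2, had 795 and 738 at day 6, against 574 and 546 at day 0 (0.45 ± 0.06, limma adjusted p = 0.0155). These 5 H3 calls were lost without either day 0 replicate, as for H3 at large.

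RNA was examined at the genes of any type whose start lies within 1 kb of a new peak. The RNA tables hold 225 of them by name, and 90 had no read in any of the 17 libraries, of 6.97 to 22.0 M counts each. In bulk RNA, fewer cells of a type and less RNA per cell cannot be told apart. Markers moved between the days as follows. Summed over 5 stem cell genes (Pou5f1, Nanog, Zfp42, Esrrb and Klf4), wild-type libraries had 128 to 182 CPM at day 6, against 3164 to 3701 CPM at day 0. The 5 neural markers (Sox1, Pax6, Tubb3, Dcx and Nefl) summed to 211 to 1126 CPM at day 6, against 149 to 195 CPM at day 0. Of these, Tubb3 was higher at day 6 in 2019 only, with 77.5 and 37.0 CPM at day 6 of 2020, against 81.4 CPM at day 0. The other neural markers were higher at day 6 in both years. The 5 markers of primitive and visceral endoderm summed to 354 to 494 CPM at day 6, against 4.18 to 18.2 CPM at day 0. The 4 markers of mesoderm and endothelium summed to 17.4 to 32.6 CPM at day 6, against 68.9 to 89.8 CPM at day 0. They did not move together. Pecam1 made up most of the day 0 sum and had 1.14 to 5.21 CPM at day 6, against 64.6 to 85.1 CPM at day 0. Kdr was higher, with 11.4 to 24.0 CPM at day 6, against 1.09 to 1.18 CPM at day 0. Cd34 had 2.83 to 4.58 CPM, against 2.73 to 4.59 CPM, and T was near 1 CPM or below at both days. The part of these cell types in the RNA results was not tested.

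The olfactory receptors at new peaks were close to silent at both days. Of the 98 in the RNA tables, polymorphic pseudogenes included, 56 had no read in any library and none had enough reads to be tested. The highest level of any was 0.431 CPM. Summed over all 98, wild-type libraries of 2019 held 6 and 7 reads at day 6, against 14 and 4 at day 0, and wild-type libraries of 2020 held 0 and 1 at day 6, against 0 at day 0. The markers of olfactory sensory neurons, Omp, Adcy3 and Cnga2, summed to 17.2 to 20.8 CPM at day 6, against 19.8 to 31.0 CPM at day 0, most of it from Adcy3.

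Among the genes with enough reads to be tested, the share that rose at day 6 was near that of all genes. In the 2019 wild type, 15 of 32 tested genes (46.9%) rose and 6 (18.8%) fell at day 6 (edgeR adjusted p below 0.05), against 41.4% and 36.6% of all 13593 genes tested. In the 2020 wild type, 13 of 40 (32.5%) rose and 12 (30.0%) fell, against 36.0% and 34.8% of all 14760. The median log2 fold change was 0.08 in 2019 and -0.02 in 2020, against 0.09 and 0.08 over all genes. In the same 2019 fit, the genes at kept peaks had 231 rises and 108 falls among 396, and those at lost peaks 620 rises and 144 falls among 911. Of the 225 genes at new peaks, 32 had enough reads to be tested in 2019, and of the 744 at kept peaks, 396. Of the 32 genes at new peaks tested in both years, 15 (46.9%) were called in both, of which 11 rose in both and 3 fell in both. Of all 13326 genes tested in both years 62.6% were called in both, and 95.4% of these had the same direction, against 93.3% of the 15. The exception at new peaks was Pdp1, a phosphatase of pyruvate dehydrogenase, which rose by 0.40 (adjusted p = 0.0231 by edgeR) in 2019 and fell by 0.89 (adjusted p = 0.00392 by edgeR) in 2020.

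Ndn, Sema3a and Robo1 rose in both years. Ndn, an imprinted growth suppressor of neurons, had 138 and 140 CPM at day 6, against 11 and 12 CPM at day 0 in 2019 (log2 fold change 3.31 ± 0.10 SE, edgeR adjusted p = 1.31e-11). In 2020 it had 119 and 117 CPM at day 6, against 12.6 CPM in the single day 0 library. Its new peak, chr7:62346851-62361067, begins just beyond its start and had enrichments of 2.82 and 2.79. Sema3a, a secreted cue that repels axons, had 21.6 and 18.0 CPM at day 6, against 0.574 and 0.418 CPM at day 0 in 2019 (5.09 ± 0.29, edgeR adjusted p = 4.69e-09), and 25.4 and 24.4 CPM at day 6, against 4.36 CPM at day 0 in 2020. Its day 0 level thus differed between the years by more than its duplicates did. Robo1, a receptor of Slit axon guidance cues, rose by 1.14 in 2019 and 1.09 in 2020.

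Dpysl3, a cytoskeletal protein of growing neurites, had 507 and 457 CPM at day 6, against 60.2 and 52.9 CPM at day 0 in 2019 (2.84 ± 0.09, edgeR adjusted p = 1.69e-11). In 2020 it was not called, with 187 and 134 CPM at day 6 and 79.2 CPM at day 0 (edgeR adjusted p = 0.180). The neural markers were also higher at day 6 in 2019 than in 2020, with Tubb3 at 427 and 392 CPM in 2019 and at 77.5 and 37.0 CPM in 2020. Cntnap2 had 6.92 and 5.31 CPM at day 6, against 0.574 and 2.17 CPM at day 0 in 2019 (1.72 ± 0.38, edgeR adjusted p = 0.00103). Its change was 3.14 without day 0 replicate 2 and 1.23 without day 0 replicate 1, and it was called in both cases. Smim10l1 had 104 and 99.9 CPM at day 6, against 26.1 and 25.2 CPM at day 0 in 2019, and 94.1 and 92.4 CPM, against 24.3 CPM in 2020. It was one of the few with peaks of H3K27me3 and H3.3 over its new peak at day 6.

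Other genes that rose had few or no reads at day 0. Fibin, a secreted protein known from fin bud growth in zebrafish, had 8.5 and 10.0 CPM at day 6 in 2019 and no read at day 0, at least 58.5-fold higher when 3 counts over the day 0 libraries are taken as the floor (edgeR adjusted p = 1.68e-07). In 2020 it had 2.56 and 2.39 CPM at day 6, against 0.474 CPM at day 0. Lum, a proteoglycan of collagen matrix, was at least 13.5-fold higher in 2019 (edgeR adjusted p = 0.000170) and at least 10.9-fold higher in 2020 (edgeR adjusted p = 0.00414), with 1.27 to 2.2 CPM at day 6 and no read at day 0. Macc1, known in human colon cancer as a regulator of the MET receptor, had 9.23 and 10.0 CPM at day 6 in 2020 and no read at day 0, at least 67.8-fold higher (edgeR adjusted p = 0.000116), while in 2019 it had 0.866 and 0.786 CPM at day 6. Olfm3, a secreted olfactomedin, and Mgat4c, a glycosyltransferase, also rose in 2020 and stayed below 2 CPM in wild-type libraries. The calls of Olfm3 were lost with DESeq2 in both years. Rasa1, Sh3gl3 and Lcorl, which had well over 1 CPM at day 0, also rose in both years.

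Zfp599 and Fignl1 fell in both years. Zfp599, a zinc finger protein, had 14.2 and 15.3 CPM at day 6, against 24.7 and 29.0 CPM at day 0 in 2019 (-1.14 ± 0.13, edgeR adjusted p = 2.91e-06). Fignl1, an ATPase of DNA repair by recombination, had 129 and 126 CPM at day 6, against 179 and 184 CPM at day 0 (-0.77 ± 0.07, edgeR adjusted p = 2.48e-07). Aff1, a scaffold of transcription elongation, fell by 0.72 in 2019. In 2020 it had 81.1 and 79.2 CPM at day 6, against 66.7 CPM at day 0, and it was not called (-0.18 ± 0.14, edgeR adjusted p = 0.256). The sign of that fold differs from that of the CPM because the fold is scaled by TMM and the CPM by total counts. Il34, a ligand of the CSF1 receptor, fell in both years at levels below 2 CPM, and its calls were lost without any of 3 of the 4 libraries of 2019 or without day 6 replicate 1 of 2020. Tcaim fell by 0.42 in 2019, a call lost without day 6 replicate 2 or day 0 replicate 2. In 2020 the falls of Lce1g, at least 8.52-fold, and of Cd96, at least 4.59-fold, rest on a day 0 library with 0.616 and 0.332 CPM, and that of Abcb5 was lost without either day 6 replicate.

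**Figure D5:**
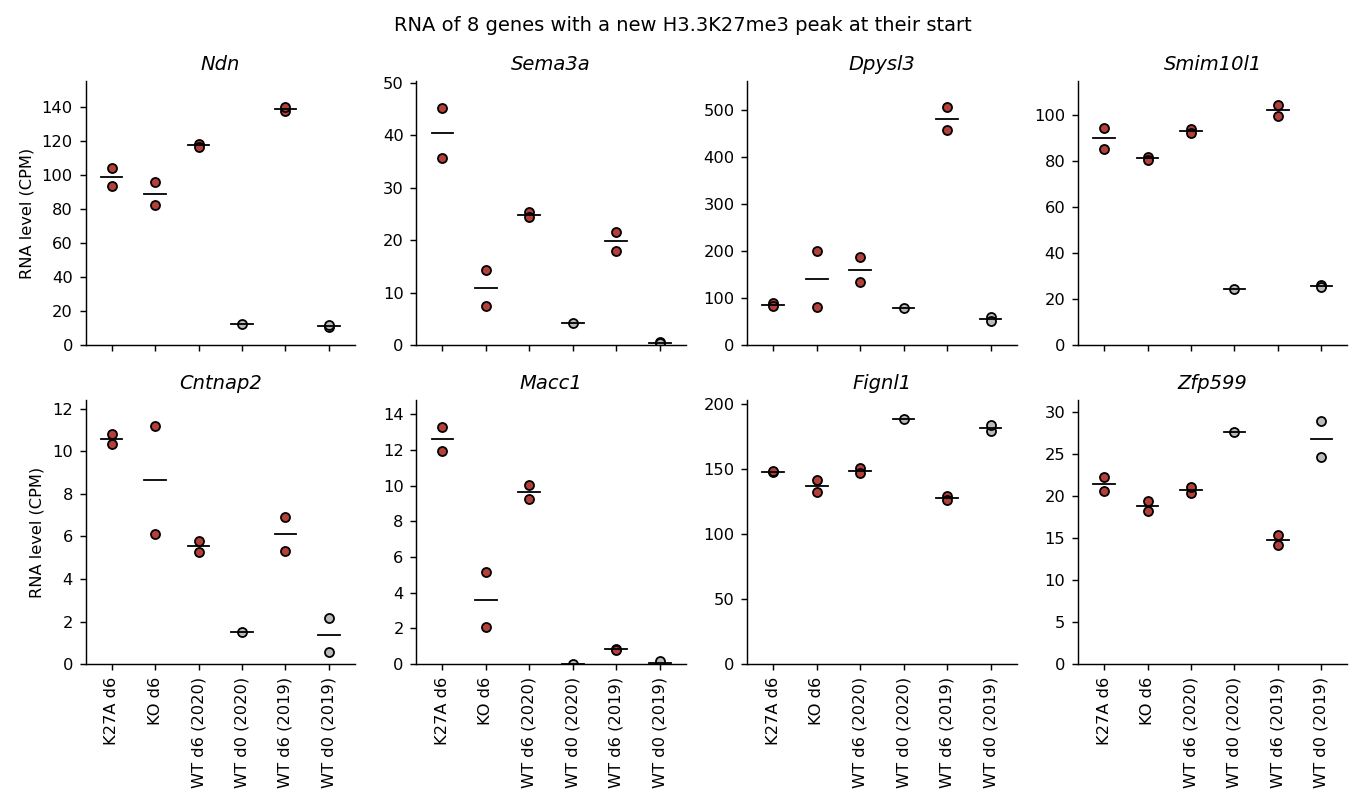
RNA level (CPM, linear axes from 0) of 8 genes with a new H3.3K27me3 peak at their start, in H3.3K27A (K27A), H3.3A knockout (KO) and wild-type (WT) libraries at day 6 (d6, red) and wild-type libraries at day 0 (d0, grey). Points are libraries and short lines are group means. Ndn stood at 117 to 140 CPM in wild-type day 6 libraries and at 11 to 12.6 CPM at day 0.

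In the edited lines the counts of called genes at new peaks were small, with 40 genes tested in each comparison. Between H3.3K27A and wild type at day 6, none of the 40 tested genes was called by edgeR. Over all genes 1.13% rose and 0.908% fell, so a count of 0 among 40 is near the overall share. At an unadjusted edgeR p below 0.05 there were 9 of the 40, beside 98 of 432 genes at kept peaks and 251 of 994 at lost peaks. The share over all genes at that unadjusted threshold was not computed. DESeq2 called 1 gene, Dpysl3, which edgeR also called without its filter on low counts. Dpysl3 had 90.9 and 82.7 CPM in H3.3K27A, against 187 and 134 CPM in wild type (-0.85 ± 0.29, edgeR adjusted p = 0.184). Between H3.3K27A and the knockout, 3 genes rose and 1 fell, against 9.03% and 9.64% of all genes. Between the knockout and wild type, 2 rose and 2 fell, or 5.00% and 5.00%, against 6.98% and 4.42% of all, which is near the overall share. Each pair of these comparisons shares the libraries of 1 line, so their values are set side by side and not counted as independent.

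Sema3a had 45.2 and 35.7 CPM in H3.3K27A, 7.58 and 14.3 CPM in the knockout and 25.4 and 24.4 CPM in wild type at day 6. It rose in H3.3K27A against the knockout (1.79 ± 0.25, edgeR adjusted p = 0.00139) and fell in the knockout against wild type (-1.05 ± 0.24, edgeR adjusted p = 0.0262), while H3.3K27A against wild type was not called (0.74 ± 0.23, edgeR adjusted p = 0.155). Macc1 had 13.3 and 12 CPM in H3.3K27A, 5.14 and 2.09 CPM in the knockout and 9.23 and 10.0 CPM in wild type. It rose in H3.3K27A against the knockout (1.68 ± 0.40, edgeR adjusted p = 0.0180). Pus10, a pseudouridine synthase, rose by 0.30 in that comparison (edgeR adjusted p = 0.0196). Calr, a calcium-binding chaperone of the endoplasmic reticulum, had 1087 and 1092 CPM in H3.3K27A, 2071 and 1664 CPM in the knockout and 1122 and 1275 CPM in wild type, and it fell in H3.3K27A against the knockout (-0.90 ± 0.13, edgeR adjusted p = 0.00202).

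Against wild type, Calr (0.79 ± 0.13, edgeR adjusted p = 0.00726) and Aff1 (0.50 ± 0.11, edgeR adjusted p = 0.0236) rose in the knockout, and Dmxl1 fell by 0.39 with Sema3a. The 2 knockout libraries of day 6 stood apart from each other, with Tubb3 at 42.6 and 130 CPM and Dcx at 21 and 87.7 CPM. Without knockout replicate 1 the counts were 8 called genes against H3.3K27A and 7 against wild type, and without knockout replicate 2 they were 12 and 11. Without either H3.3K27A replicate 2 were called against the knockout, the calls of Macc1 and Pus10 being lost. Without wild-type replicate 1 or 2, 0 or 1 was called between the knockout and wild type by edgeR, and in the first case all 4 calls named here were lost, and in the second all but that of Calr. The call of Dmxl1 was also lost without knockout replicate 1.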

How the data were processed

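Chromatin was immunoprecipitated from wild-type cells in 16 libraries and polyadenylated RNA was sequenced in 17. Alignment used STAR 2.5.2a on mm10, per the submitters' processing notes. Peaks were called per library with MACS 2.2.6 without a control at p below 0.01, a minimum length of 1000 bp, a largest gap of 5000 bp and 1 tag per position, per the file headers. The lists deposited by the authors give for each call a pileup signal (tags at the summit), a fold enrichment (a ratio to the library's mean) and a −log10 p-value. The score column of the authors' filtered lists holds 1 in every row and was not used. Their filtered lists kept calls past a −log10 p of 3.03 to 3.37, as compared here, and how the threshold was set is not given in the sources used here. The authors' deposited tables of regions hold scaled signal per library and their own log2 fold and p-values, and DiffBind is among the tools in the submitters' processing notes. RNA was deposited as raw counts per gene symbol, made with HTSeq per the submitters' processing notes, with 22.5% to 50.8% of reads not assigned to a gene and left out. The strand setting is not given in the sources used here, so reads of overlapping genes cannot be told apart.

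Peaks were compared by an overlap of at least 1 bp. Gene starts came from GENCODE M21 and sequences from RefSeq GRCm38.p6, the build of mm10. Counts were tested across all genes with edgeR 4.0.16 (quasi-likelihood, TMM, low counts filtered), in 1 fit per sequencing year, since year and series cannot be told apart. CPM are counts over the library total without TMM. Region signal was tested with limma 3.58.1 on log2(signal + 1). Calls are Benjamini-Hochberg adjusted p below 0.05 over the whole table, two-sided. Intervals of shares (95%, Wilson) cover counting error only. Both tests were checked on simulated data. DESeq2 1.42.0 was an alternative. R 4.3.3 and Python 3.11.15 were used. The labels do not say whether RNA duplicates came from separate cultures, so p-values measure the spread between these libraries, which may be technical.

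Named regions were the 8 with the highest mean enrichment, the 5 longest, the 3 windows with most new peaks and the 5 largest called changes per region table. Named genes were those with the largest called changes per RNA comparison without overlap between the libraries, the 8 with the highest enrichment and members of set lists. Exceptions are stated beside them. The members, lists and rules were chosen with earlier results of these data known. The table of H3.3K27me3 regions was not used here, since it rests on the libraries that chose the peaks. The result of 1 marker list is not reported here.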

Additional observations from a re-analysis of the deposited data

How the results depend on the processing

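Among the genes picked by the naming rules and the 5 regions named per table, none called in the fit reported changed sign. Other called genes and regions were not checked singly. The balance of rises and falls turned in 3 counts. The 100 rises and 106 falls of H3.3 regions became 148 and 81 after centring, 85 and 83 without day 6 replicate 2, and 85 and 74 without day 0 replicate 1. The 13 rises and 12 falls of RNA in 2020 became 13 and 14 with RLE normalization and 25 and 31 within 5 kb. The 3 rises and 1 fall in H3.3K27A against knockout became 3 and 5 without knockout replicate 1. The number of new peaks was 2126 with at least 50% of the peak covered, 1510 when any unfiltered day 0 call counted as presence, 1822 with all libraries cut to an equal number of top peaks, and 1906 above the lowest enrichment step, which was chosen after the data were seen because the planned median equals that step. Leaving out 1 library gave 4370 to 18673. The share with a gene start was 3.44% by any day 0 call, 6.58% within 5 kb, 5.35% above the lowest step and 3.08% to 5.27% without 1 library.

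Against only the stronger peaks of the other antibody, from its median up, H3K27me3 shares were 1.32% at day 6 and 0.898% at day 0, and H3.3 shares 3.88% and 3.20%. With at least 50% of the new peak covered, H3.3 at day 0 was 3.99%. With 1 duplicate instead of both, H3K27me3 shares were 15.8% to 20.7% at day 6 and 10.8% to 13.2% at day 0, H3.3 shares 11.5% to 14.7% and 9.41% to 10.3%, and H3 shares 17.7% to 26.8% and 6.26% to 10.4%.

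RNA calls for gene starts within 5 kb were 55 (2019), 56 (2020), 1 (H3.3K27A against wild type), 12 (H3.3K27A against knockout) and 10 (knockout against wild type). Above the lowest step they were 13 (2019), 11 (2020), 1 (H3.3K27A against knockout) and 2 (knockout against wild type). For H3.3K27A against wild type, DESeq2 gave 1 and no count filter 1. Without 1 library, calls were 17 to 23 (2019), 22 to 22 (2020), 0 to 0, 2 to 12 and 0 to 11. A lone library is then assumed to vary like the other groups. Region calls for H3K27me3 were 255 after centring and 45 in the authors' deposited table, and for H3 they were 149 in the authors' deposited table. Without 1 library they were 31 to 61 (H3K27me3), 159 to 191 (H3.3) and 0 to 200 (H3). The causes were not tested.

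Replicate numbers were not taken as pairs. Same-numbered libraries correlated at -0.10 (H3K27me3), -0.03 (H3.3), -0.01 (H3), -0.03 (RNA 2019), 0.22 (H3.3K27A and wild type), -0.30 (H3.3K27A and knockout) and -0.51 (knockout and wild type). With the replicate number as a block the calls were 56, 203 and 197 regions and 20, 21, 0, 4 and 2 genes. The calls of Sema3a and Dmxl1 in knockout against wild type were then not made. With crossed numbers, added after the data were seen, they were 96 H3K27me3 regions, 6 genes for H3.3K27A against knockout and 6 for knockout against wild type. The shallow day 6 H3.3K27me3 libraries limit what a low peak can show.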
